A study of Mus musculus with 4 samples.

Results

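The 43 genes described here are the regulators of the mouse cell cycle: 9 cyclins of the A, B, D and E types, 4 cyclin-dependent kinases (CDKs), 7 CDK inhibitors, 8 E2F factors, 3 RB pocket proteins, 7 CDC25 phosphatases and mitotic kinases, p53 with its inhibitor MDM2, and the 3 MYC family factors. They were taken by name, without regard to their values, from the 55487 genes of a count table. RNA came from ES-E14TG2a (E14-Tg2a) mouse embryonic stem cells (mESCs), an established line, during cardiogenic differentiation. The study calls its parental line WT beside clones with a deleted enhancer. Cells of both days spent 48 h without serum. The d4 cells were then dissociated, reaggregated and kept for another 40 h with Activin A (8 ng/ml), BMP4 (0.5 ng/ml) and VEGF (5 ng/ml), and the d2 cells were collected without these steps. Each day has 2 libraries, and the effects of time, of the factors and of the reaggregation cannot be told apart.

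Cyclins are the switchable partners of CDKs. D cyclins with CDK4 or CDK6 and E cyclins with CDK2 phosphorylate the RB pocket proteins in G1, which frees E2F factors to turn on genes of DNA replication, and A and B cyclins with CDK1 carry the cell into mitosis. INK4 and CIP/KIP proteins hold CDKs back, CDC25 phosphatases activate them and WEE1 inhibits them. mESCs are known for a short G1 with high cyclin E and little cyclin D activity, and for MYC and MYCN as factors that sustain their self-renewal.

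The libraries held 11397439 to 16851485 counts, and 14932 genes passed a filter on low counts. Values are counts scaled to library size by TMM factors (CPM), and 3 counts in a library, taken as the floor, stand for 0.176 to 0.254 CPM. Fold changes are d4 over d2 on the log2 scale from edgeR's quasi-likelihood test, with SE the standard error, and a gene was called where its Benjamini-Hochberg adjusted p was under 0.01. The log2 CPM of the tested genes, which as genes are no independent replicates, correlated at 0.977 within d4, 0.983 within d2 and 0.775 to 0.803 between days. Within each day, genes of low GC content were higher in replicate 2 than in replicate 1 (Spearman rho across genes -0.49 at d4 and -0.71 at d2).

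The make-up of the cells differed between the days. Endothelial markers summed to 1476 and 1140 CPM at d4 against 42.3 and 37.7 CPM at d2, with Kdr, the VEGF receptor and the highest of them at d4, at 601 and 463 CPM at d4 against 0.654 and 0.683 CPM at d2. Primitive blood markers, led at d4 by the embryonic globin Hbb-bh1 with 307 and 180 CPM at d4 against 0.164 and 0.607 CPM at d2, summed to 539 and 395 CPM at d4 against 8.26 and 8.05 CPM at d2. Cardiac mesoderm markers, led at d4 by Hand1 with 312 and 280 CPM at d4 and 0 CPM in both d2 libraries, summed to 686 and 654 CPM at d4 against 2.78 and 3.04 CPM at d2. Pluripotency markers, among which Pou5f1 had the highest level of any library in d2 replicate 1 (4.40 and 3.82 CPM at d4 against 999.6 and 721 CPM at d2), summed to 367 and 372 CPM at d4 against 2201 and 1957 CPM at d2. Neuroectoderm markers summed to 82.3 and 72.4 CPM at d4 against 491 and 519 CPM at d2, and Otx2, the highest of them at d2, had 6.43 and 3.12 CPM at d4 against 227 and 266 CPM at d2. Endoderm markers summed to 123 and 113 CPM at d4 against 1.96 and 2.05 CPM at d2, with Cxcr4 highest in all 4 libraries. Cxcr4 had 103 and 104 CPM at d4 (84.2% and 91.7% of the sum) against 0.736 and 0.835 CPM at d2 (37.5% and 40.7%). Of the other endoderm markers, Foxa2, Foxa1, Afp, Ttr and Apoa1 did not pass the filter. Of the 5 tested, 3 were called higher. In bulk RNA, a lower value can mean fewer cells of a type or less RNA per cell, and these cannot be told apart. The part of this change in cell types in the values of the cell cycle genes was not tested.

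Ccnd2, Ccnd3 and Myc were higher at d4 and Ccne1 was lower. Of the 43 genes, 39 passed the filter, and besides these 4 the other 35 did not pass the test. Among all 14932 genes tested 24.3% were called, 12.9% as higher and 11.3% as lower, against 4 of 39 (10.3%) among the cell cycle genes. Their median log2 fold change was 0.02, and that of all tested genes was -0.03. At an unadjusted p under 0.05 were 12 of the 39, beside 7044 of all 14932 genes (47.2%). DESeq2 called 4 of the 39 higher and 2 lower, beside 2182 higher and 1895 lower of all 14932 genes. The counts per class given below are to be read beside these shares. The 2 days did not overlap for 29 of the 39 (17 with d4 above d2 and 12 with d4 below), or 74.4%, beside 70.9% of all tested genes. Summed over the 43 genes, the level was 4587 and 4156 CPM at d4 against 4491 and 4462 CPM at d2. The calls depend on the number of libraries. Without d2 replicate 1 or without d2 replicate 2, edgeR called no gene in the whole table. The edgeR log2 fold changes there were 4.59 and 4.58 for Ccnd2 and 2.14 and 1.85 for Ccnd3. For Myc they were 3.57 and 3.12, and for Ccne1 -2.20 and -2.32. Taken gene by gene, 2 libraries against 2 allow an exact two-sided permutation p of 0.333 at best.

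**Figure D1:**
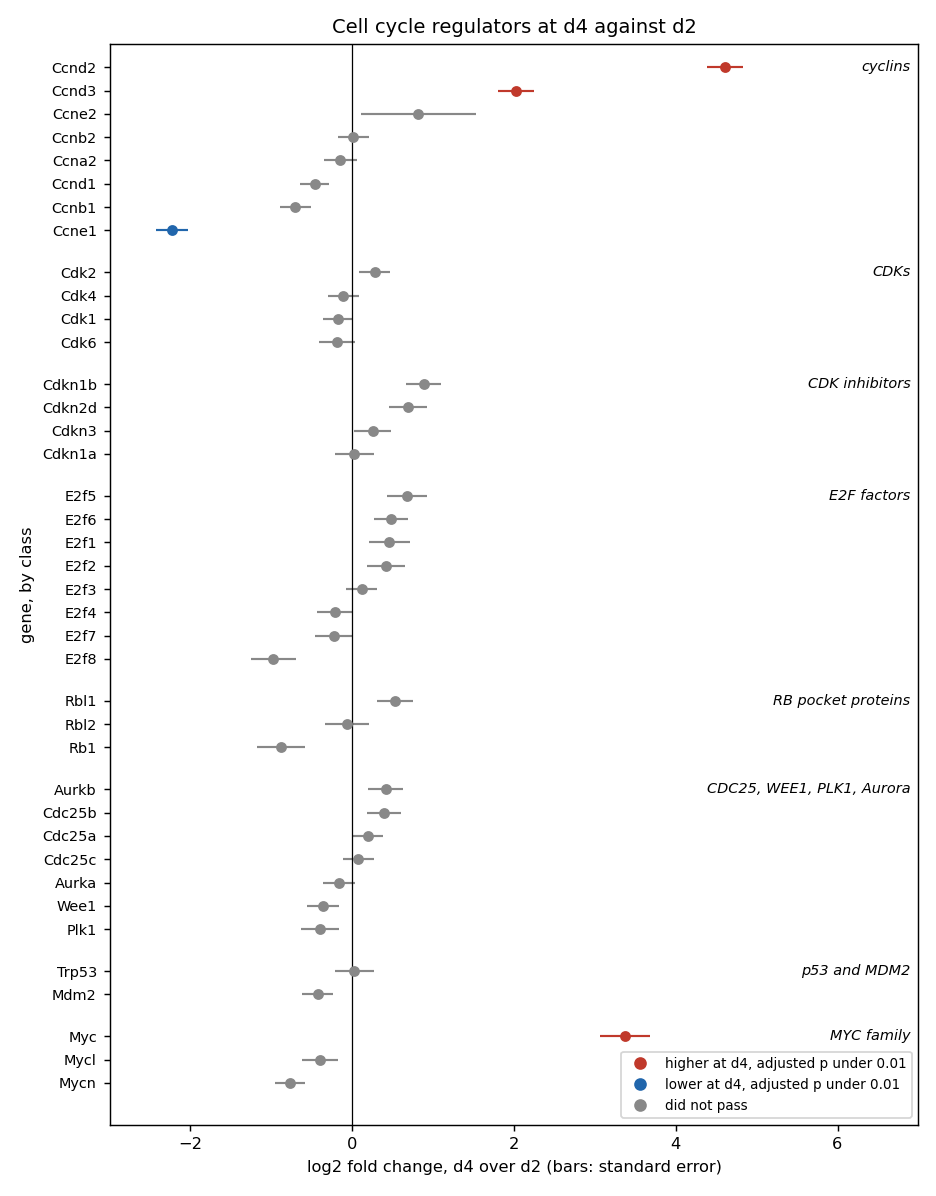
Each point is 1 of the 39 tested cell cycle genes, placed by its log2 fold change of d4 over d2 on the x axis and grouped by class down the page, with bars for the standard error. Ccnd2 at 4.61, Myc at 3.37 and Ccnd3 at 2.03 stand to the right and Ccne1 at -2.23 to the left, and the other 35 lie between -0.97 and 0.88.

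The D cyclins, which couple growth signals to CDK4 and CDK6, changed in make-up. Ccnd2, which encodes cyclin D2 (ENSMUSG00000000184.12, chromosome 6 from 127125162 to 127152193, minus strand, GRCm38), had 204 and 226 CPM at d4 against 8.67 and 8.88 CPM at d2. Both d4 libraries were far above both d2 libraries, a 24.5-fold rise (log2 fold change 4.61, SE 0.22, adjusted p = 4.5e-05). It had the largest fold change of the 39 tested. Ccnd3, cyclin D3 (ENSMUSG00000034165.16, chromosome 17 from 47505051 to 47599691, plus strand), had 190 and 157 CPM at d4 against 46.2 and 39.0 CPM at d2. It was 4.07-fold higher (log2 fold change 2.03, SE 0.22, adjusted p = 0.000529), with no overlap between the days. Ccnd1, cyclin D1, had 137 and 132 CPM at d4 against 190 and 182 CPM at d2. The 2 days did not overlap, but the difference did not pass the test (log2 fold change -0.47, SE 0.18, adjusted p = 0.0893).

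Levels of different genes can be compared only per length, as CPM per kb of exonic sequence. The length joins the exons of all annotated transcripts of a gene (4709 bases for Ccnd1, 9409 for Ccnd2 and 8775 for Ccnd3). Which transcripts were present was not measured, so shares and orders per length, here and below, depend on these lengths. On that scale the 3 D cyclins together stood at 72.5 and 70.0 CPM per kb at d4 against 46.6 and 44.0 CPM per kb at d2. Ccnd1 made up 40.1% and 40.2% of the sum at d4 against 86.7% and 87.7% at d2. Ccnd2 made up 29.9% and 34.3% at d4 against 1.976% and 2.15% at d2, and Ccnd3 made up 29.9% and 25.5% at d4 against 11.3% and 10.1% at d2. Thus on this scale Ccnd1 led in all 4 libraries, but at d4 it shared the family with Ccnd2 and Ccnd3. The order of Ccnd2 and Ccnd3 differed between the d4 libraries. By CPM not divided by length, Ccnd2 and Ccnd3 were both above Ccnd1 in both d4 libraries. The shares per length are a description and were not tested.

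**Figure D2:**
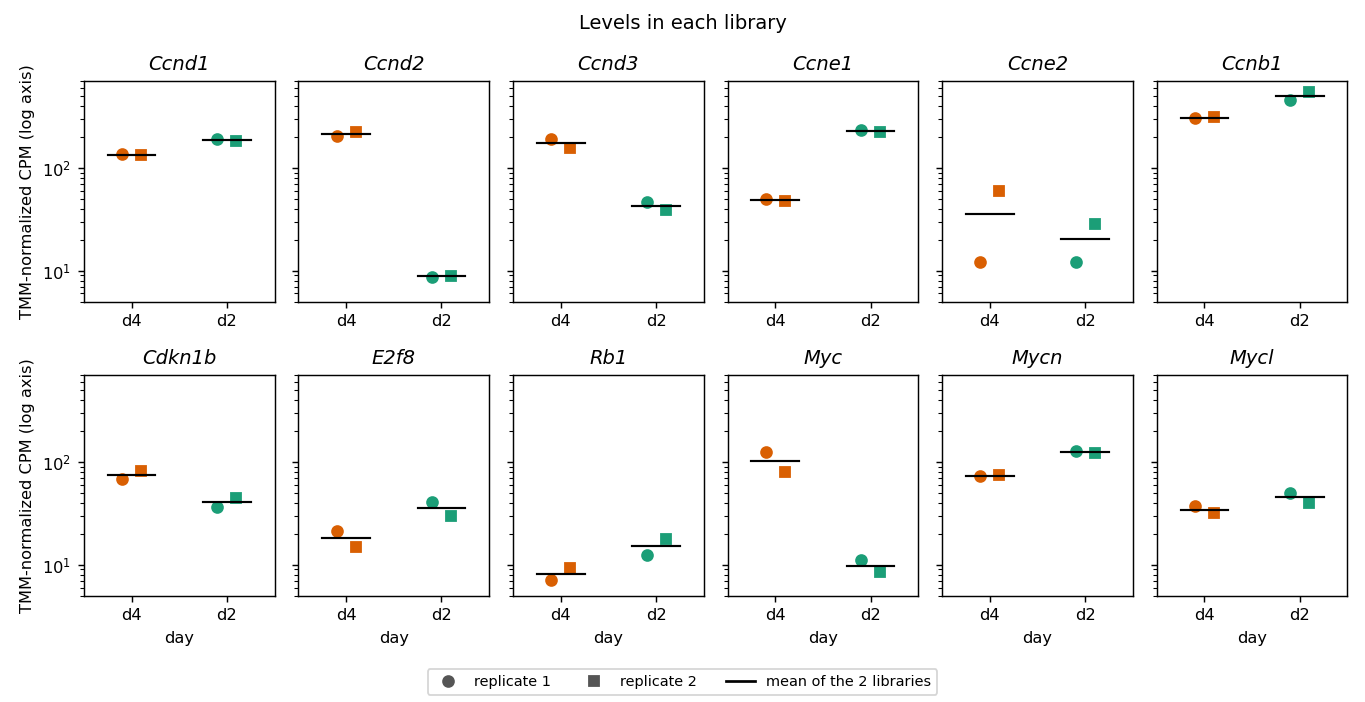
The y axis, which is logarithmic, gives the CPM of 12 cell cycle genes in each library, d4 left of d2, with circles for replicate 1, squares for replicate 2 and a line for the mean of the 2 libraries. Ccnd2 (204 and 226 CPM at d4, 8.67 and 8.88 CPM at d2) and Myc have their days far apart, Ccne1 is lower at d4, and the 2 replicates of Ccne2 differ more than its days.

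The E cyclins activate CDK2 at the entry to S phase. Ccne1, cyclin E1 (ENSMUSG00000002068.16, chromosome 7 from 38097984 to 38107534, minus strand), had 49.4 and 47.2 CPM at d4 against 232 and 221 CPM at d2. It fell 4.69-fold, with both replicates of each day close together (log2 fold change -2.23, SE 0.19, adjusted p = 0.00023). Ccne2, cyclin E2, had 12.02 and 59.7 CPM at d4 against 12.3 and 28.6 CPM at d2, so replicate 2 was the higher one on both days and the days overlapped (log2 fold change 0.82, SE 0.71, adjusted p = 0.405). Its value rests on single libraries. Without d4 replicate 1 its log2 fold change was 1.55 (adjusted p = 0.000265) and without d4 replicate 2 it was -0.76 (adjusted p = 0.128). The GC content of its longest annotated transcript is 36.3%, beside a median of 49.7% over the tested genes. The part of the GC trend between replicates in Ccne2 was not tested beyond the fit with that trend removed. There its log2 fold change was 1.21 (adjusted p = 0.0155). With that trend removed and the replicate number as a block it was called higher (1.17, adjusted p = 0.00115). Per length, the 2 E cyclins summed to 22.0 and 34.8 CPM per kb at d4 against 90.7 and 91.2 CPM per kb at d2, and Ccne1 was 84.4% and 51.0% of that at d4 against 96.1% and 91.0% at d2. The level of Ccne1 alone was 18.6 and 17.7 CPM per kb at d4 against 87.2 and 83.0 CPM per kb at d2. Per length, it exceeded the sum of the D cyclins in both d2 libraries. In both d4 libraries it lay below each of Ccnd1, Ccnd2 and Ccnd3, by a small margin for Ccnd3 in replicate 2. This order depends on the exonic lengths used.

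RefSeq promoter windows of GRCm38.p6, 250 bases before to 50 after a gene's start, were matched by symbol for 32 of the 43 genes, in 38 windows. Both strands were searched for CCAAT, for TTTGAA, the cell cycle homology region (CHR) of genes of G2 and mitosis, for the E-box CACGTG to which MYC and MAX bind, and for the E2F forms TTTCCCGC, TTTCGCGC, TTTGCCGC and TTTGGCGC. An E2F form stood in 23.7% of the 38 windows and in 2.26% of all 32851 windows. CCAAT stood in 57.9% of them and in 37.4% of all, TTTGAA in 28.9% and 17.9%, and the E-box in 13.2% and 7.15%. A match is a description of these letters and no evidence of binding. The windows of the called genes that matched, Ccnd3 and Ccne1, are shown to set them beside that of Cdk1, which did not pass the test and holds 3 of the 4 motifs, with matches in capitals.
Ccne1, chr7:38107441-38107740, minus strand: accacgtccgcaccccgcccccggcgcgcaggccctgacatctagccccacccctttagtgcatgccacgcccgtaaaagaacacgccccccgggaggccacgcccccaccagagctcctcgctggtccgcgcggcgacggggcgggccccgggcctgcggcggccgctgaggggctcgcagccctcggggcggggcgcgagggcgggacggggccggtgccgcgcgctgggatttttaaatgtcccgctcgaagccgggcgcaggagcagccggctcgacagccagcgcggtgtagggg
Ccnd3 start 1, chr17:47504801-47505100, plus strand: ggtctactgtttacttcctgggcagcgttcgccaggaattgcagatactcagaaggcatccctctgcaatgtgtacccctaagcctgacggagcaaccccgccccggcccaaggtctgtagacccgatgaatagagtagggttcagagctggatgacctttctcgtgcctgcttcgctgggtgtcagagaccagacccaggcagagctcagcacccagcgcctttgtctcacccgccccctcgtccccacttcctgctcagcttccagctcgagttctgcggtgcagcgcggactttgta
Ccnd3 start 2, chr17:47593217-47593516, plus strand: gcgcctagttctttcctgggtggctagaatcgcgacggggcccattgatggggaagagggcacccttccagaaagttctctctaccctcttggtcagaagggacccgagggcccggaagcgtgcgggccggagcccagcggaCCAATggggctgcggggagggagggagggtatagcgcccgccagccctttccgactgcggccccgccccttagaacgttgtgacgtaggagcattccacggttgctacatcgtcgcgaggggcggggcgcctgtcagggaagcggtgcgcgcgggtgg
Cdk1, chr10:69352863-69353162, minus strand: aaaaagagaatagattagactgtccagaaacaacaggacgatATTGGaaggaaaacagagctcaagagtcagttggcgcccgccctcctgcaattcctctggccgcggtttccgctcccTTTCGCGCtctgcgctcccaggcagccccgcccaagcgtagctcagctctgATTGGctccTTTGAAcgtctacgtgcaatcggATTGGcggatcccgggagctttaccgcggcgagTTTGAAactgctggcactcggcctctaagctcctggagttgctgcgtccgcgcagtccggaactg
The Ccne1 window held none of the letters searched, with a GC content of 76.0%. Of the Ccnd3 windows, the second held 1 CCAAT on the plus strand and the first none. The Cdk1 window held 2 TTTGAA, 3 CCAAT on the opposite strand, read as ATTGG, and 1 E2F form, and none of these overlapped another. Mycn had 3 E2F forms, 2 of which overlap each other, and 1 TTTGAA, and Cdk4, whose level did not pass the test, had 4 E-boxes in its window.

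None of the cyclins of S phase and mitosis passed the test. Ccna2, cyclin A2, had 298 and 311 CPM at d4 against 295 and 378 CPM at d2, with overlapping days (log2 fold change -0.15, SE 0.20, adjusted p = 0.604). Ccnb2, cyclin B2, had 102.1 and 91.0 CPM at d4 against 98.9 and 92.7 CPM at d2 (log2 fold change 0.01, SE 0.19, adjusted p = 0.97). Ccnb1, cyclin B1, which brings CDK1 to its full activity, had 306 and 311 CPM at d4 against 458 and 547 CPM at d2. Its d4 libraries were both below its d2 libraries, but the test was not passed (log2 fold change -0.71, SE 0.19, adjusted p = 0.0252). It did pass without the filter (adjusted p = 0.00775) and with the GC trend removed (adjusted p = 0.00636). Ccna1, the A cyclin of germ cells, was under the filter with 3 and 3 counts at d4 against 8 and 5 counts at d2. Per length, Ccnb1 held 52.1% and 55.3% of the B cyclins at d4 against 62.7% and 68.2% at d2, and the 9 cyclins together summed to 307 and 314 CPM per kb at d4 against 383 and 418 CPM per kb at d2.

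None of the 4 CDKs was called, with 0 at an unadjusted p under 0.05 and 0 by DESeq2. Cdk4, the partner of the D cyclins, had the highest level per length of the 4 in every library, with 746 and 613 CPM at d4 against 759 and 710 CPM at d2 (log2 fold change -0.11, SE 0.19). Its close relative Cdk6 had 21.5 and 24.9 CPM at d4 against 23.9 and 28.9 CPM at d2 (log2 fold change -0.18, SE 0.22). Cdk4 thus made up 99.3% and 99.1% of the pair per length at d4 against 99.3% and 99.1% at d2. Cdk1, the mitotic kinase, had 370 and 317 CPM at d4 against 379 and 395 CPM at d2 (log2 fold change -0.17, SE 0.19). Cdk2, the partner of cyclins E and A, had 153 and 132 CPM at d4 against 116 and 119 CPM at d2 (log2 fold change 0.28, SE 0.19, adjusted p = 0.301).

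Among the 7 CDK inhibitors, 4 passed the filter and 0 were called. At an unadjusted p under 0.05, 2 of the 4 were higher, beside 47.2% of all tested genes in either direction. DESeq2 called 1 higher. That gene was Cdkn1b, which encodes p27, an inhibitor of cyclin E with CDK2. It had 68.3 and 80.8 CPM at d4 against 36.6 and 44.3 CPM at d2, with no overlap (log2 fold change 0.88, SE 0.21, adjusted p = 0.0168 by edgeR and 0.00688 by DESeq2). Cdkn2d, the INK4 protein p19, had 15.3 and 13.9 CPM at d4 against 9.65 and 8.43 CPM at d2 (log2 fold change 0.69, SE 0.24, adjusted p = 0.0592). Cdkn1a, which encodes p21, a main target of p53, had 38.4 and 26.8 CPM at d4 against 33.4 and 30.5 CPM at d2, and the days overlapped (log2 fold change 0.03, SE 0.24, adjusted p = 0.945). Cdkn3, a CDK phosphatase, had 14.5 and 15.4 CPM at d4 against 11.6 and 13.4 CPM at d2 (log2 fold change 0.25, SE 0.23). The other 3 are INK4 genes with few counts. Cdkn2a had 8 and 12 counts at d4 against 13 and 7 counts at d2, Cdkn2b 6 and 6 counts at d4 against 7 and 11 counts at d2, and Cdkn2c 9 and 13 counts at d4 against 3 and 6 counts at d2. These 3 were not tested, since they did not pass the filter.

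The third CIP/KIP inhibitor, Cdkn1c, which encodes p57 and is imprinted, is not among the 43 genes but changes the picture of its family. It had 153 and 150 CPM at d4 against 7.61 and 8.88 CPM at d2 (log2 fold change 4.195, SE 0.22, adjusted p = 5.7e-05). Per length, Cdkn1a, Cdkn1b and Cdkn1c together summed to 101 and 98.6 CPM per kb at d4 against 21.2 and 22.7 CPM per kb at d2. Cdkn1c made up 74.4% and 74.4% of that sum at d4 against 17.6% and 19.2% at d2, when Cdkn1a held 44.5% and 37.9% and Cdkn1b 37.9% and 42.9%. A higher sum of D cyclins and a higher sum of CIP/KIP inhibitors were thus measured in the same d4 libraries.

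**Figure D3:**
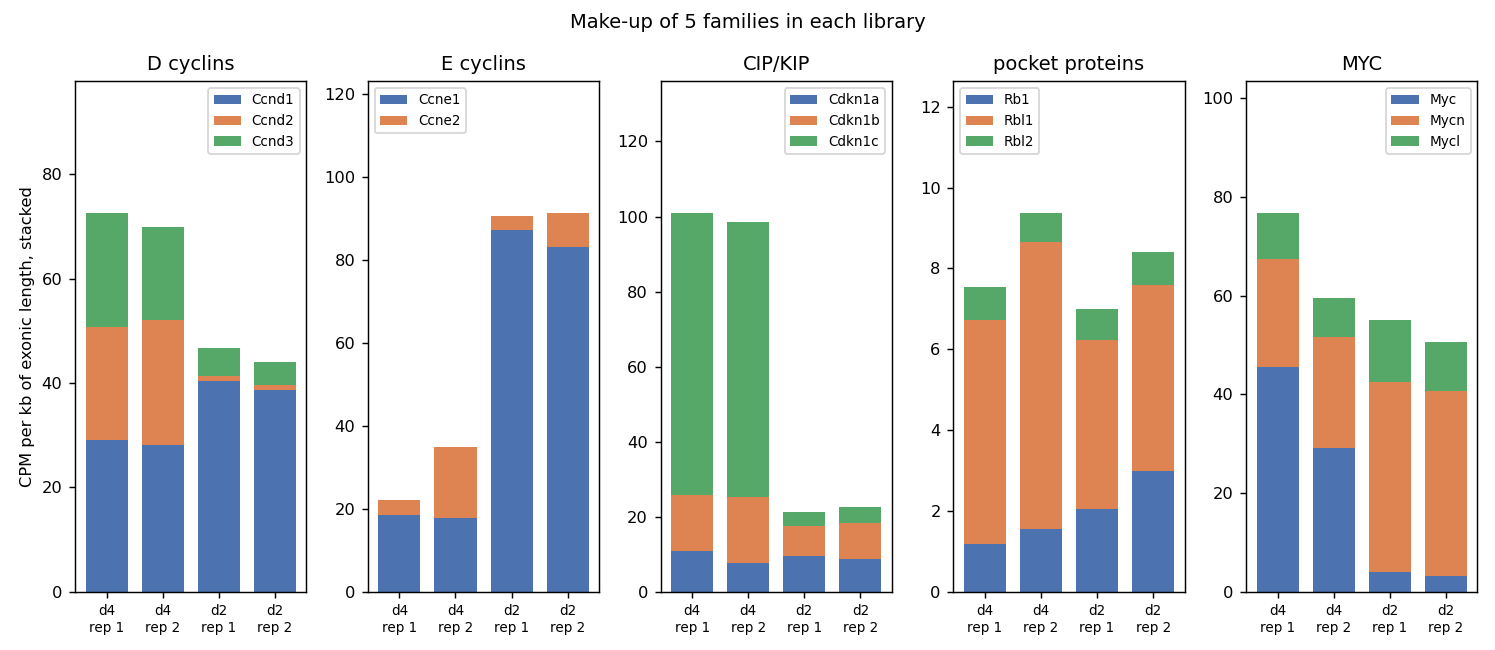
Stacked bars give the CPM per kb of exonic length of each member of 5 families in the 4 libraries, d4 left of d2, each panel with its own y axis from 0. Ccnd2, Cdkn1c and Myc take up a large part of their families at d4 and a small part at d2, Ccne1 leads at d2, and Rbl1 leads the pocket proteins in all 4 libraries.

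The 8 E2F factors fall into activators of S phase genes (E2f1, E2f2 and E2f3), repressors that work with pocket proteins (E2f4 and E2f5), and repressors that do not need them (E2f6, E2f7 and E2f8). None was called by edgeR, and 0 by DESeq2. At an unadjusted p under 0.05, 1 of the 8 was higher and 1 lower, beside 47.2% of all tested genes in either direction. The activators had log2 fold changes of 0.46 for E2f1 (35.9 and 29.7 CPM at d4 against 27.8 and 19.9 CPM at d2), 0.42 for E2f2 and 0.12 for E2f3, with adjusted p of 0.193 to 0.661. E2f5 had 86.2 and 86.3 CPM at d4 against 42.7 and 65.2 CPM at d2 (log2 fold change 0.68, SE 0.25, adjusted p = 0.0727). E2f4 had 145 and 122 CPM at d4 against 175 and 134 CPM at d2, with overlapping days (log2 fold change -0.21, SE 0.22). E2f4 and E2f5 were the 2 highest of the 8 per length in every library, E2f4 with 34.9% and 33.0% of the sum at d4 against 48.2% and 38.9% at d2. The atypical repressor E2f8 had 21.2 and 15.0 CPM at d4 against 41.1 and 29.99 CPM at d2 (log2 fold change -0.97, SE 0.27, adjusted p = 0.0297). The 2 days of E2f8 did not overlap, and its call depends on the libraries. Without d4 replicate 1 it passed edgeR's test (log2 fold change -1.24, adjusted p = 0.00564) but not that of DESeq2 (adjusted p = 0.0291), and without d4 replicate 2, d2 replicate 1 or d2 replicate 2 its edgeR adjusted p was 0.0949, 0.136 and 0.0604. Its relative E2f7 had overlapping days (46.9 and 36.7 CPM at d4 against 53.7 and 44.2 CPM at d2, log2 fold change -0.23, SE 0.23), and E2f6 had 116 and 95.9 CPM at d4 against 69.3 and 82.1 CPM at d2 (log2 fold change 0.49, SE 0.21, adjusted p = 0.115).

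Of the pocket proteins, which bind and silence E2F factors, none was called. Rb1, the retinoblastoma gene, had 7.11 and 9.30 CPM at d4 against 12.3 and 17.9 CPM at d2 (log2 fold change -0.88, SE 0.29, adjusted p = 0.0528). Of the 3, Rb1 alone was at an unadjusted p under 0.05, and DESeq2 called 0. Rbl1, which encodes p107, had 33.3 and 42.6 CPM at d4 against 25.0 and 27.6 CPM at d2 (log2 fold change 0.53, SE 0.22, adjusted p = 0.107). Rbl2, p130, had 6.18 and 5.35 CPM at d4 against 5.72 and 6.30 CPM at d2, with overlapping days (log2 fold change -0.06, SE 0.27). Per length Rbl1 led all 4 libraries, with 73.5% and 75.9% of the 3 at d4 against 59.8% and 54.7% at d2, and Rb1 had 15.7% and 16.5% at d4 against 29.4% and 35.4% at d2.

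The 7 CDC25 phosphatases and mitotic kinases had log2 fold changes from -0.40 to 0.41, with 0 called, 0 at an unadjusted p under 0.05 and 0 by DESeq2. Plk1, the polo kinase of mitotic entry, had 118 and 110 CPM at d4 against 178 and 124 CPM at d2 (log2 fold change -0.40, SE 0.23). Aurkb, the Aurora kinase of the chromosomal passenger complex, had 116 and 94.1 CPM at d4 against 85.6 and 72.1 CPM at d2 (log2 fold change 0.41, SE 0.21), and the spindle Aurora kinase Aurka had 142 and 122 CPM at d4 against 153 and 142 CPM at d2 (log2 fold change -0.16, SE 0.19). These 2 related kinases lay on opposite sides of 0, neither past the test. Wee1, which holds CDK1 inactive, had 59.8 and 54.5 CPM at d4 against 68.8 and 77.7 CPM at d2 (log2 fold change -0.36, SE 0.20). Cdc25a, which acts at the start of S phase as well as later, had 169 and 159 CPM at d4 against 149 and 138 CPM at d2 (log2 fold change 0.19, SE 0.19). Cdc25b and Cdc25c had log2 fold changes of 0.39 (SE 0.21) and 0.07 (SE 0.19). Cdc25a had the largest share of the CDC25 level per length in every library, with 53.5% and 54.1% at d4 against 54.8% and 53.3% at d2.

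Trp53, which encodes p53, had 239 and 172 CPM at d4 against 227 and 177 CPM at d2, with overlapping days (log2 fold change 0.02, SE 0.24, adjusted p = 0.946). Mdm2, its ubiquitin ligase and also its target, had 89.2 and 80.7 CPM at d4 against 110 and 118 CPM at d2 (log2 fold change -0.43, SE 0.19, adjusted p = 0.122). Neither passed the test. Of 25 tested p53 target genes, which include Cdkn1a and Mdm2, 0 were called higher and 5 lower, and 20 did not pass, with a median log2 fold change of -0.61 beside -0.03 over all tested genes. The 5 make up 20.0% of the list, beside 11.3% of all genes called as lower. At an unadjusted p under 0.05, 2 of the 25 were higher and 14 lower, beside 22.6% of all tested genes lower. DESeq2 called 8 of the list lower. Ddit4l, a stress-induced inhibitor of mTOR signalling, had 3.05 and 2.29 CPM at d4 against 25.6 and 29.6 CPM at d2 (log2 fold change -3.38, SE 0.28, adjusted p = 0.000186). Pmaip1, the BH3-only death gene NOXA, had 8.72 and 13.5 CPM at d4 against 40.7 and 60.2 CPM at d2 (log2 fold change -2.18, SE 0.31, adjusted p = 0.00186). The other 3 called by edgeR were Phlda3, an AKT inhibitor (log2 fold change -1.34, SE 0.23), Aen, an apoptosis nuclease (-0.996, SE 0.19), and Gtse1 (-1.19, SE 0.25), a G2 gene that restrains p53.

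The MYC family, basic helix-loop-helix factors that drive growth and bind DNA with MAX, also changed in make-up. Myc (ENSMUSG00000022346.16, chromosome 15 from 61985391 to 61990374, plus strand) had 124 and 79.1 CPM at d4 against 11.1 and 8.43 CPM at d2. Both d4 libraries were well above both d2 libraries, a 10.4-fold rise (log2 fold change 3.37, SE 0.31, adjusted p = 0.000279). Mycn had 72.3 and 74.2 CPM at d4 against 127 and 124 CPM at d2. It was 1.71-fold lower without passing the edgeR test (log2 fold change -0.77, SE 0.19, adjusted p = 0.0161), and DESeq2 called it lower (adjusted p = 0.00352). Mycl had 37.0 and 31.9 CPM at d4 against 50.5 and 40.2 CPM at d2 (log2 fold change -0.40, SE 0.22, adjusted p = 0.202). The leading member differed between the days. Per length, Myc held 59.4% and 48.9% of the family at d4 against 7.44% and 6.13% at d2, Mycn held 28.6% and 37.8% at d4 against 69.8% and 74.2% at d2, and Mycl held the rest. The sum was 76.7 and 59.5 CPM per kb at d4 against 54.98 and 50.6 CPM per kb at d2.

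Genes around MYC moved in both directions. The MAX network includes the MXD repressors that compete with MYC for MAX. Of 11 of its genes, 3 were called higher and 2 lower (45.5%, beside 24.3% of all tested genes), and 6 did not pass. Their median log2 fold change was 0.18. The 3 higher ones were the repressors Mxi1 (44.4 and 35.3 CPM at d4 against 15.1 and 14.0 CPM at d2, log2 fold change 1.45, SE 0.23), Mxd4 (log2 fold change 1.41, SE 0.22) and Mxd1 (log2 fold change 1.33, SE 0.26). The lower ones were Mlxipl, the glucose sensor ChREBP, and the repressor Mxd3 (log2 fold change -1.60, SE 0.33). Mlxipl had 0.423 and 0.294 CPM at d4 against 8.50 and 6.00 CPM at d2 (log2 fold change -4.34, SE 0.42, adjusted p = 0.000358). Its d4 values lay near the floor (0.254 and 0.176 CPM in those libraries), which leaves the size of its fold change uncertain. Of 25 MYC target genes of ribosome making and growth, 0 were called by edgeR, with 0 higher and 13 lower at an unadjusted p under 0.05 (52% of the list, beside 22.6% of all tested genes lower at that p) and 3 lower by DESeq2. Their median log2 fold change was -0.49, 24 of the 25 lay below 0, and their summed level was 15080 and 18572 CPM at d4 against 24223 and 29669 CPM at d2. Myc itself was higher in these same d4 libraries.

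Lists of genes that work with or under the cell cycle regulators gave few calls. Over 173 tested genes outside the 43, including those already named for p53 and MYC, 8 were higher and 9 were lower, or 9.83% beside 24.3% of all tested genes, and 64 were at an unadjusted p under 0.05, or 37.0% beside 47.2% of all. With 1 library left out the number of calls changed, for these genes as for all tested genes. Of 30 G1/S replication genes, 0 were called higher and 1 lower (3.33%, beside 24.3% of all), and 29 did not pass. At an unadjusted p under 0.05, 0 were higher and 10 of the 30 lower, beside 22.6% of all tested genes lower. DESeq2 called 2 lower. The median log2 fold change was -0.36, with 22 of 30 below 0. The list summed to 5981 and 5601 CPM at d4 against 7438 and 7545 CPM at d2. Of 30 G2/M genes edgeR called 0, with 1 higher and 2 lower at an unadjusted p under 0.05 and 0 by DESeq2, a median of -0.20, and sums of 5005 and 6988 CPM at d4 against 6375 and 7897 CPM at d2 that overlapped. Of 10 DREAM and E2F partners 0 were called, with 2 lower at an unadjusted p under 0.05 and 1 lower by DESeq2, and the median was -0.49. Of 19 ubiquitin ligases of the cycle 0 were called, with 2 higher and 1 lower at an unadjusted p under 0.05 and 1 higher by DESeq2, and the median was -0.08.

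Of 29 other cyclins, CDKs and cofactors, 5 were called higher and 1 lower (20.7%, beside 24.3% of all tested genes), and 23 did not pass, with a median of -0.06. Besides Cdkn1c, Ccng2, an atypical cyclin induced in cells that leave the cycle, had 130 and 115 CPM at d4 against 23.0 and 25.2 CPM at d2 (log2 fold change 2.35, SE 0.21, adjusted p = 0.000238). Cdk14, a membrane-bound kinase of WNT signalling, had 47.1 and 48.9 CPM at d4 against 8.42 and 9.72 CPM at d2 (log2 fold change 2.40, SE 0.22, adjusted p = 0.000284). Ccni (log2 fold change 1.53, SE 0.24) and Cdk19, a kinase of the Mediator complex (log2 fold change 1.03, SE 0.20), were higher as well. Cdk18 was the 1 lower gene, with 4.49 and 3.65 CPM at d4 against 22.3 and 14.5 CPM at d2 (log2 fold change -2.18, SE 0.31, adjusted p = 0.00184). Cdk14 and Cdk19 are better known for signalling and transcription than as drivers of the cycle, and their activity was not measured here.

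**Figure D4:**
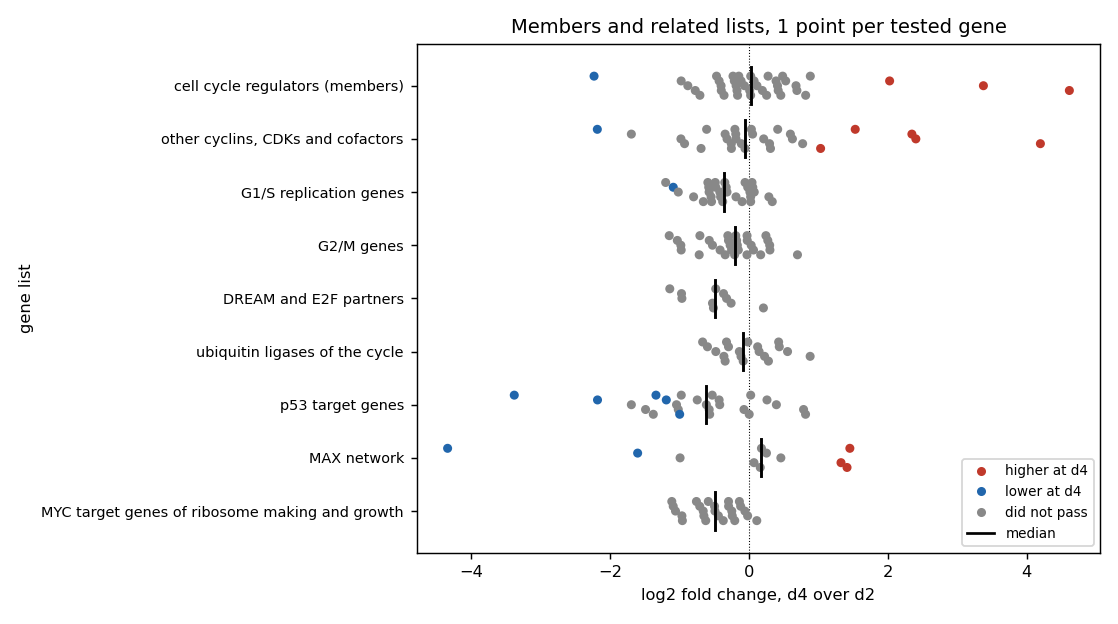
Each point is 1 tested gene, placed by its log2 fold change of d4 over d2 on the x axis, with 1 row per list, red for called higher, blue for called lower, grey for not past the test and a black line for the list's median. The medians of the MYC targets (-0.49), the DREAM and E2F partners (-0.49) and the p53 targets (-0.61) lie left of 0, and the cell cycle regulators (0.02) are spread over both sides.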

How the data were processed

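By the study's methods, the authors trimmed strand-specific paired-end reads with cutadapt, aligned them to mm10/GRCm38 with STAR and counted them per gene with featureCounts, which left out reads with several positions or several genes. GENCODE and Ensembl are both named there as the annotation. The deposited values are raw counts per gene, whole numbers with no filter or normalization. Symbols, positions and exonic lengths came from GENCODE M21 on GRCm38, which held 55227 of 55487 gene IDs. Reads of genes with near-identical pseudogenes (Ccnb1, Ccnb2, Ccnd3 and Trp53 have named ones) can be lost in such counting, which leaves their values uncertain. The groups d4 and d2 came from the sample titles, with 2 libraries each. The study describes these as 2 independent differentiation experiments.

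The filter was a proportion test (one-sided, adjusted p under 0.05) of the counts summed over a day being above 0.5 CPM, passed in d4 or d2. The d4 libraries were compared with the d2 libraries in R 4.3.3 with edgeR 4.0.16 by its quasi-likelihood F test, two-sided, with TMM factors and no term but the day, and Benjamini-Hochberg adjustment ran over all genes tested. The SE is the coefficient divided by the root of F. Floors cover counting error only. On simulated counts of these 14932 genes with a common spread (biological coefficient of variation 23.6%), the test called 19.4% of 67 genes with a set log2 change of 1, 95.5% of 67 with one of 2 and 100% of 66 with one of 3.

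The genes and lists were chosen with earlier results of these data known. All 43 members are given, and from each related list up to 4 called genes with the smallest adjusted p. The values of 1 called gene of the G1/S list are not reported here. The genes Mxd3, Gtse1, Ccni and Cdk19 fall outside this rule and were named after their values were seen. For each marker list its total and its highest gene are given. Alternatives were DESeq2 size factors, upper-quartile factors, no filter, filterByExpr, DESeq2 1.42.0, limma voom (limma 3.58.1), thinning of all libraries to the smallest, thresholds of 0.05 on adjusted p or of 1 on the log2 fold change, the replicate number as a block, removal of the GC trend, both together, and each library left out. DESeq2 with each library left out was added after seeing the data.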

Additional observations from a re-analysis of the deposited data

How the results depend on the processing

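Ccnd2, Ccnd3, Myc and Ccne1 kept their direction in all 20 alternatives and were called in all but edgeR without d2 replicate 1 and without d2 replicate 2. The 3 cell cycle genes higher at d4 became 6 with the replicate block and 7 with the replicate block and the GC trend removed, and 0 to 4 with 1 library left out. The 1 lower at d4 became 3 with no filter, 2 with DESeq2, 4 with an adjusted p under 0.05, 5 with the replicate block, 4 with the GC trend removed, 4 with both, and 0 to 2 with 1 library left out. The 8 related genes higher at d4 became 14 with an adjusted p under 0.05, 16 with the replicate block, 15 with the block and the GC trend removed, and 0 to 8 with 1 library left out. The 9 lower became 17 with upper-quartile factors, 35 with no filter, 18 with DESeq2, 32 with an adjusted p under 0.05, 54 with the replicate block, 36 with the GC trend removed, 50 with both, and 0 to 32 with 1 library left out (3 to 26 by DESeq2). Calls among all genes changed as well. In the main fit, 1933 of 14932 tested genes were higher and 1694 lower. With the replicate block these were 3478 and 3496, with an adjusted p under 0.05 2991 and 2679, and with the GC trend removed 2718 and 2589. They were 3089 and 3007 with both, 1875 and 1955 with upper-quartile factors, and 2182 and 1895 with DESeq2. With no filter they were 2901 and 2873 of 26543 genes. The cause was not tested.

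The replicate numbers are shared by the days, but nothing in the labels ties a number to a batch, and 2 pairs are too few to decide it from the data (same-numbered deviations correlated at 0.48 across genes). The block added Ccnb1, Cdkn1b, Cdkn2d, E2f5, E2f8, Rb1 and Mycn to the 4 called genes, and with the GC trend removed as well it added Ccnb1, Ccne2, Cdkn1b, E2f5, E2f8, Rbl1 and Mycn (Ccne2 at adjusted p = 0.00115, Rbl1 at 0.00296). With the block, 11 of the 25 MYC targets were lower, beside 3496 of all 14932 tested genes. DESeq2 added Cdkn1b and Mycn, and the GC correction Ccnb1, Cdkn1b, E2f8 and Mycn. No scaling moved the median of all genes by more than 0.1 (upper-quartile factors by -0.08). In the simulation most genes with a set log2 change of 1 were missed, while in the data some near 1 were called, such as Cdk19 (1.03). With 2 libraries per day, a gene that did not pass is not shown to be unchanged.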
